A study of Homo sapiens with 8 samples.

Results

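The genes described here are 10 that govern the passage from G1 into S phase, chosen by name: the D cyclin CCND1, the E cyclins CCNE1 and CCNE2, the kinases CDK4 and CDK6, the transcription factors E2F1 and E2F2, and the CDK inhibitors CDKN1B, CDKN2C and CDKN2D. All 10 were found among the 34164 genes listed in either of 2 expression tables. RNA sequencing was performed on Kyse510, an established human esophageal squamous cell carcinoma line, in 8 libraries, each of them the only library of its condition. In the inhibitor table, cells received vehicle (DMSO), 7 µM SP2509 (an LSD1 inhibitor), 7 µM UNC0642 (a G9a inhibitor), or both inhibitors, for 2 days, and no separate dose is given for the combination. In the knockdown table, Kyse510 lines carrying a doxycycline-inducible shRNA against LSD1 (shLSD1) or G9a (shG9a), selected in puromycin for 14 days, were grown without doxycycline (Dox) or with it for 2 days. Each treated library was compared to its own control, so that the 3 inhibitor libraries share 1 vehicle library. For the knockdowns the study's text also names cells with a non-silencing shRNA (shNC) as controls, whereas the labels give the same line without Dox, and the labels were followed. The analysis held no library of cells with Dox and without an shRNA to LSD1 or G9a, and an effect of Dox itself cannot be told apart from that of knockdown.

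In G1, D cyclins pair with CDK4 or CDK6 and phosphorylate RB, which releases E2F factors to transcribe the genes of DNA replication. The E cyclins are among these E2F-driven genes and, by activating CDK2, phosphorylate RB further. The INK4 inhibitors (CDKN2C and CDKN2D here) bind CDK4 and CDK6, whereas the CIP/KIP inhibitor CDKN1B binds cyclin-CDK2 complexes, and in squamous carcinomas of the esophagus this pathway is often altered through CCND1 gain or CDKN2A loss. Cell cycle arrest in S phase was among the questions of the study, and the values below are RNA levels only. By Western blot, the study reported lower E2F1, CDK2 and total RB protein in cells that received both inhibitors. The doses and time of that blot may differ from those of the libraries.

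E2F1 and E2F2 are themselves known targets of E2F factors. Their promoter sequence is shown because theirs were the only windows among the members that held a match to the motif searched. The 100 bases before the RefSeq start (GRCh38.p14, both genes on the minus strand, printed 5′ to 3′) lie at chr20:33686386-33686485 for E2F1 and chr1:23531234-23531333 for E2F2, with matches to an E2F motif in capitals:
E2F1: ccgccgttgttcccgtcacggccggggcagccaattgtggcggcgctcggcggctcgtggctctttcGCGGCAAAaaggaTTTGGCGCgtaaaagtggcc
E2F2: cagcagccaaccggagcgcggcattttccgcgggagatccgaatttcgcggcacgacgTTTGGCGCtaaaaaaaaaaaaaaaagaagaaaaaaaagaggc
The motif letters searched were TTTGGCGC, TTTGCCGC, TTTCGCGC and TTTCCCGC on both strands, in windows of 300 bases around each RefSeq start. E2F1 held 2 matches, of which the one that reads GCGGCAAA is on the other strand, and E2F2 held 1 match. The windows of CCNE1, CDK4, CDK6, CDKN1B, CDKN2C and CDKN2D held none of these exact letters, which makes 8 of the 10 members with a window, all except CCND1 and CCNE2. Among 35116 promoters of the same length, 3.31% held at least 1 match and 0.145% held at least 2. A match is a description of the letters and not evidence of binding.

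Expression is given as FPKM (fragments per kilobase of gene length, scaled to the reads of the library), which allows levels to be compared between genes. A gene entered a comparison at an FPKM of at least 1 in either library, and was called higher or lower at a fold change of at least 1.3 after adding 1 to both values. Intervals are exact 95% intervals of the FPKM ratio without the added 1, from the whole reads behind each value, and cover counting error only. Gene positions are those deposited with the FPKM values (GRCh38). No condition was sequenced more than once, so the spread between replicates is unknown and no p-value between conditions is given. In bulk RNA, fewer cells in a phase and less RNA per cell cannot be told apart. Libraries held 15662035 to 17889466 reads, and the share of FPKM from the mitochondrial genome ranged from 18.5% to 32.6%, with both Dox libraries (29.9% and 32.6%) above their controls (24.6% and 24.3%). That share's part in the ratios was not tested. Where the treated and the control value both reached 5 FPKM, the median log2 ratio was -0.10 for SP2509, 0.04 for both inhibitors, 0.12 for shLSD1 and 0.15 for shG9a, so a small common shift lies in the ratios below. KDM1A, which encodes LSD1, fell from 26.0 to 6.29 FPKM in shLSD1 cells with Dox, and EHMT2, which encodes G9a, fell from 7.85 to 4.76 FPKM in shG9a cells with Dox. All 9 squamous epithelial markers listed had at least 1 FPKM in some library (KRT5, 74.6 to 734), whereas the leukocyte markers PTPRC, CD3E, CD68 and LYZ reached at most 0.269 FPKM. Fibroblast markers reached 5.36 FPKM (COL1A1), with COL1A2 and DCN at most 0.0494, and CDH5, an endothelial marker, reached 14.0 FPKM with PECAM1 at most 0.569.

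The direction of change differed among the 5 comparisons. With SP2509 alone, 6 of 8 members tested were lower (CCND1, CCNE1, CDK4, E2F1, E2F2 and CDKN1B) and 1 was higher (CDKN2D), whereas 39.9% of all genes tested were lower and 21.0% higher. With UNC0642 alone, 4 of 9 were higher (CCND1, CCNE1, CCNE2 and E2F1) and 0 lower, against 18.2% and 16.9% of all genes. With both inhibitors, 6 of 9 were higher (CCND1, CCNE1, CCNE2, E2F1, E2F2 and CDKN2D) and 2 lower (CDK6 and CDKN1B), against 31.4% and 31.7%. In shLSD1 cells with Dox, 2 of 7 were higher (CCND1 and E2F1) and 0 lower, against 24.8% and 12.3%, so that the first share is close to the background. In shG9a cells with Dox, 6 of 9 were higher (CCNE1, CDK4, E2F1, E2F2, CDKN2C and CDKN2D) and 1 lower (CDK6), against 32.9% and 17.6%. Some members passed the filter only in the library where they are high. Such were CCNE2 with UNC0642 and with both inhibitors, CCNE1 in shLSD1 cells, and E2F2 and CDKN2C in shG9a cells. With SP2509, CCNE1 and E2F2 passed only through the vehicle library, where they are high. Entry through the treated library favours a call of higher, and entry through vehicle favours a call of lower, so these counts are descriptions. The dot plot of levels shows the 8 values of each gene, and the plot of ratios shows each gene against its own control.

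**Figure D1:**
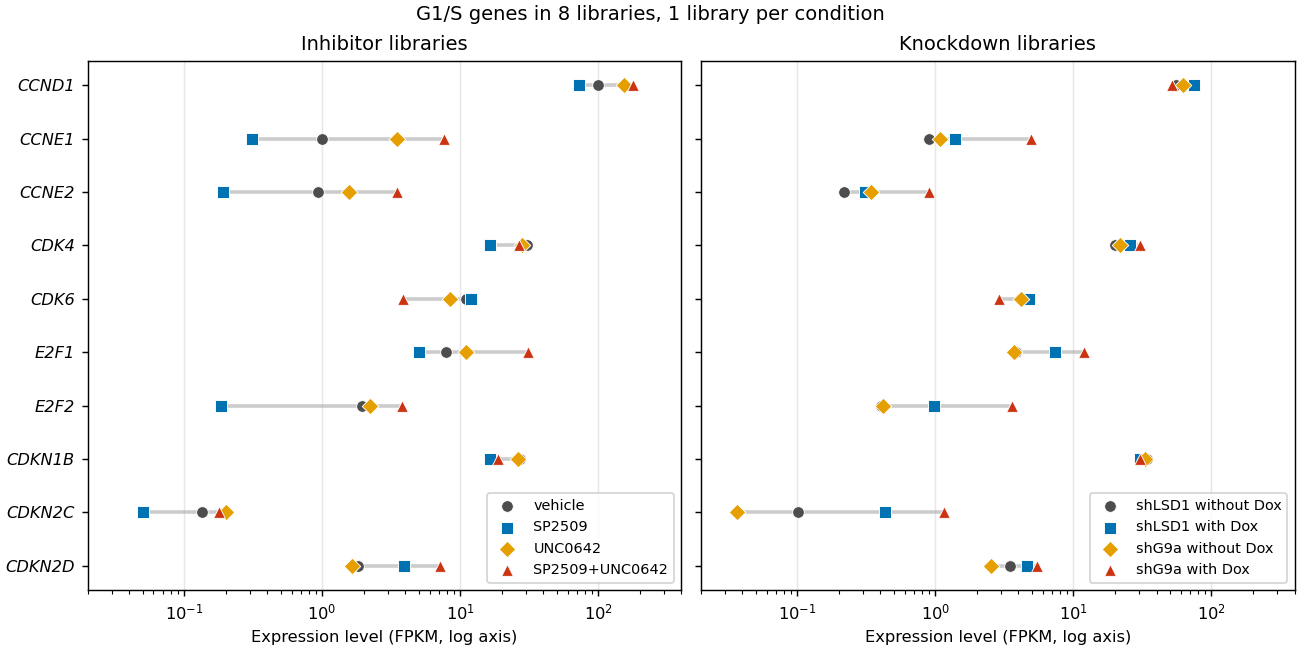
Expression level in FPKM (log axis) of the 10 G1/S genes in the 4 inhibitor libraries (left) and the 4 knockdown libraries (right), with 1 point per library and a grey line from the lowest to the highest. CCND1 is highest in every library (51.4 to 177 FPKM), and CCNE1, CCNE2, E2F1 and E2F2 are lowest with SP2509 and highest with both inhibitors among the inhibitor libraries.

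**Figure D2:**
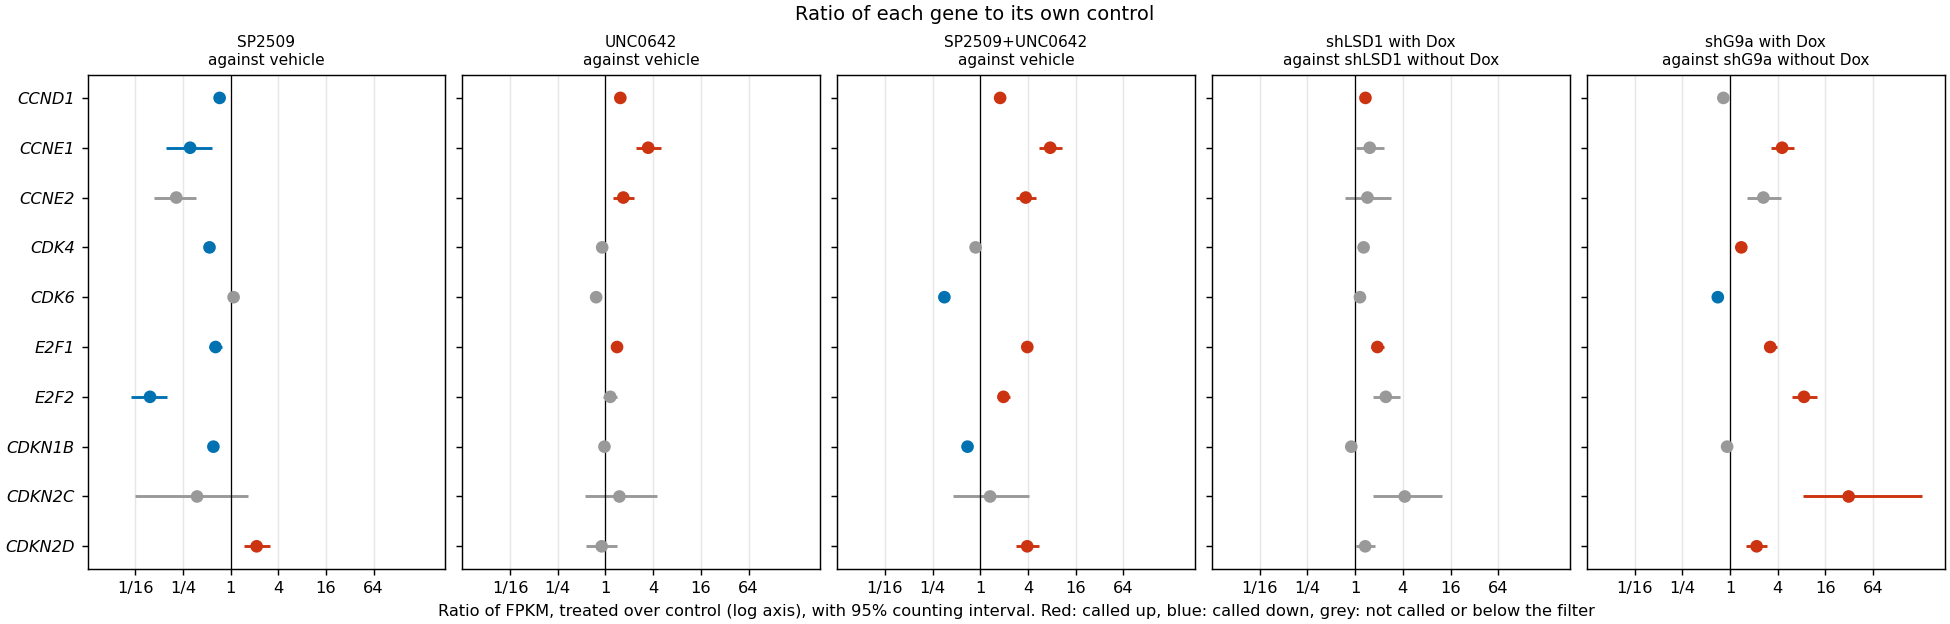
Ratio of FPKM, treated over control (log axis, no pseudocount), for the 10 genes in the 5 comparisons, with exact 95% counting intervals as lines. Red points were called higher, blue points lower, and grey points were not called or were below the filter of 1 FPKM. The ratio of CDKN2C in shG9a cells with Dox (31.5) has an interval from 8.39 to 266.

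CCND1 (chr11:69641087-69654474), the cyclin that links growth signals to CDK4 and CDK6, was the most abundant member in every library. Its level was 99.6 FPKM with vehicle, 72.3 after SP2509, 153 after UNC0642 and 177 after both inhibitors. The order from SP2509 through vehicle and UNC0642 to the combination held beyond counting error at every step, and the combination was 1.78 times vehicle (1.73 to 1.83). In the knockdown lines, CCND1 was at 55.7 FPKM without and 75 with Dox in shLSD1 cells, and at 62.3 without and 51.4 with Dox in shG9a cells. The knockdowns thus differed in direction, and the log2 ratio in shG9a cells minus that in shLSD1 cells was -0.71 (-0.79 to -0.63). Only the shLSD1 change was called (1.35 times, 1.3 to 1.4), and that call and the SP2509 call ended when ratios were centred on their median, where the log2 ratios became 0.30 and -0.36. With that centring the shG9a value became a call (-0.42). CCND1 shares 497 of its 4761 exonic bases with LTO1 on the opposite strand, whose highest level was 15.7 FPKM, and the strand setting of the counting is not given in the sources used here.

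The E cyclins, which activate CDK2 at the start of DNA replication, spanned a wide range at low levels. CCNE1 (chr19:29811898-29824308) was at 1.0 FPKM with vehicle (40 reads), 0.308 after SP2509 (14 reads), 3.46 after UNC0642 (158 reads) and 7.64 after both inhibitors (329 reads). All neighbours in this order differed beyond counting error, and the combination was 7.63 times vehicle (5.49 to 10.9). The vehicle value lies at the filter of 1 FPKM, and the SP2509 comparison was entered through it. In shLSD1 cells CCNE1 was at 0.906 FPKM without and 1.39 with Dox, a difference too small for a call at a pseudocount of 1 (ratio 1.53, 1.02 to 2.33). In shG9a cells it was at 1.09 FPKM without and 4.96 with Dox, a ratio of 4.55 (3.30 to 6.39). The 3 lowest knockdown libraries did not differ from each neighbour beyond counting error, and shG9a with Dox stood above them.

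CCNE2 (chr8:94879770-94896678) had the same order of inhibitor libraries as CCNE1. Its level was 0.929 FPKM with vehicle (64 reads), 0.192 after SP2509 (15 reads), 1.56 after UNC0642 (123 reads) and 3.48 after both inhibitors (258 reads). The combination was 3.74 times vehicle (2.83 to 5.0), and the SP2509 ratio of 0.206 (0.109 to 0.366) was outside the calls because both values were under 1 FPKM. In the knockdown lines CCNE2 was at 0.218 FPKM without and 0.312 with Dox in shLSD1 cells, and at 0.344 without and 0.906 with Dox in shG9a cells. All 4 values were below the filter, and only the shG9a ratio (2.64, 1.65 to 4.35) had an interval that excluded 1. CCNE2 shares 1629 of its 4397 exonic bases with INTS8 on the opposite strand, which was more abundant than CCNE2 in every library (5.11 to 8.72 FPKM). INTS8 did not follow the order of CCNE2, with 7.57 FPKM in vehicle cells, 5.58 after SP2509, 8.72 after UNC0642 and 6.71 after both, and its part in the CCNE2 values was not tested.

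The kinases that partner with CCND1 moved apart. CDK4 (chr12:57747727-57756013) was at 30.6 FPKM with vehicle, 16.5 after SP2509, 27.8 after UNC0642 and 26.6 after both inhibitors. Its fall with SP2509 (ratio 0.541, 0.498 to 0.587) was larger than in the combination, where the ratio to vehicle was 0.872 (0.810 to 0.938) and which was 1.61 times SP2509 alone (1.48 to 1.75) and did not differ from UNC0642 alone beyond counting error (0.959, 0.892 to 1.03). With Dox, CDK4 went from 19.9 to 25.5 FPKM in shLSD1 cells and from 21.8 to 30.2 in shG9a cells, and only the latter was called (ratio 1.39, 1.29 to 1.5). That call ended with ratios centred on their median, at a log2 ratio of 0.31. CDK4 had the narrowest range of the 10 members, with the highest library at 1.85 times the lowest, and it shares 1369 of 3094 exonic bases with TSPAN31 on the opposite strand (2.68 to 6.0 FPKM).

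CDK6 (chr7:92604921-92836594) was the member that fell most with both inhibitors. Its level was 11 FPKM with vehicle, 12 after SP2509, 8.41 after UNC0642 and 3.88 after both inhibitors, and the combination was 0.352 times vehicle (0.324 to 0.382). In shLSD1 cells it was at 4.15 FPKM without and 4.77 with Dox, and in shG9a cells at 4.14 without and 2.91 with Dox, a ratio of 0.702 (0.632 to 0.780). The uninduced lines did not differ from each other beyond counting error, and the shG9a library with Dox was the lowest of the 8 libraries. Since CDK4 and CDK6 moved differently, the ratio of CDK4 to CDK6 FPKM was 2.77 with vehicle and 6.87 with both inhibitors, and it was 5.27 without and 10.4 with Dox in shG9a cells. With SP2509 this ratio was 1.38.

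E2F1 (chr20:33675683-33686404), which activates replication genes once RB is phosphorylated, was at 7.86 FPKM with vehicle, 5.07 after SP2509, 11 after UNC0642 and 30.8 after both inhibitors. Each step in the order differed beyond counting error, and the combination was 3.92 times vehicle (3.46 to 4.45). This RNA rise stands beside the lower E2F1 protein that the study reported with both inhibitors. In shLSD1 cells E2F1 was at 3.83 FPKM without and 7.30 with Dox, and in shG9a cells at 3.74 without and 12 with Dox. Both rises were called, and the rise in shG9a cells (ratio 3.22, 2.68 to 3.87) exceeded that in shLSD1 cells (1.91, 1.58 to 2.31) by a log2 difference of 0.75 (0.38 to 1.13).

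E2F2 (chr1:23506430-23531220), a further activator E2F, was at 1.93 FPKM with vehicle (165 reads), 0.185 after SP2509 (18 reads), 2.21 after UNC0642 (216 reads) and 3.79 after both inhibitors (349 reads). Vehicle was 10.4 times SP2509 alone (6.39 to 18.0), the largest decrease among members in the 5 comparisons, whereas the combination was 1.96 times vehicle (1.63 to 2.38). The SP2509 comparison passed the filter only through the vehicle value. UNC0642 and vehicle did not differ beyond counting error (1.15, 0.932 to 1.41). In shLSD1 cells E2F2 was at 0.403 FPKM without and 0.984 with Dox, which is just under the filter (ratio 2.44, 1.67 to 3.65). In shG9a cells it rose from 0.421 to 3.62 FPKM, a ratio of 8.60 (6.14 to 12.4). As with E2F1, the shG9a library with Dox was the highest of the knockdown libraries, as it was for CCNE1, CCNE2, CDK4, CDKN2C and CDKN2D.

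CDKN1B (chr12:12715058-12722371), the CIP/KIP inhibitor of cyclin-CDK2, was at 27.1 FPKM with vehicle, 16.4 after SP2509, 26.4 after UNC0642 and 18.7 after both inhibitors. It was lower in both libraries that received SP2509, with ratios of 0.606 (0.554 to 0.663) and 0.690 (0.632 to 0.753). In the knockdown libraries its range was narrow, with 33.9 FPKM without and 30.3 with Dox in shLSD1 cells and 33.1 without and 30.5 with Dox in shG9a cells, and neither change was called. The FPKM of CDKN1B over the summed FPKM of both E cyclins was 14.1 with vehicle, 32.9 after SP2509, 5.25 after UNC0642 and 1.68 after both inhibitors. In the knockdown lines this ratio was 30.2 without and 17.8 with Dox for shLSD1, and 23.1 without and 5.19 with Dox for shG9a. These are ratios of RNA levels, and protein was not measured in these libraries.

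The INK4 inhibitors differed in abundance. CDKN2D (chr19:10566462-10569059) was at 1.83 FPKM with vehicle, 3.89 after SP2509, 1.64 after UNC0642 and 7.13 after both inhibitors. It was the only member called higher with SP2509 alone (ratio 2.13, 1.48 to 3.11), and the combination was higher still (3.91, 2.79 to 5.58). In shLSD1 cells it was at 3.45 FPKM without and 4.64 with Dox, and in shG9a cells at 2.53 without and 5.49 with Dox, of which the second was called (2.17, 1.6 to 2.96). CDKN2D is a short gene with 43 to 181 reads per library in the inhibitor table, and its intervals are wide for that reason.

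CDKN2C (chr1:50960745-50974633) was nearly silent in most libraries. It was at 0.135 FPKM with vehicle (7 reads), 0.0508 after SP2509 (3 reads), 0.202 after UNC0642 (12 reads) and 0.179 after both inhibitors (10 reads), and no neighbours in this order differed beyond counting error. In shLSD1 cells it was at 0.102 FPKM without (6 reads) and 0.430 with Dox (25 reads), below the filter, with a ratio of 4.23 (1.69 to 12.6). In shG9a cells it was at 0.0364 FPKM without (2 reads) and 1.15 with Dox (66 reads), with a ratio of 31.5 (8.39 to 266). The higher level in both Dox libraries was thus measurable, whereas a change with inhibitors was not detectable at this depth. CDKN2C shares 617 of its 3018 exonic bases with a long noncoding RNA gene on the opposite strand, whose part in these values was not tested. The summed FPKM of CDKN2C and CDKN2D as a percentage of CDK4 plus CDK6 was 4.72% with vehicle, 13.8% after SP2509, 5.08% after UNC0642 and 24.0% after both inhibitors. It was 14.8% and 16.7% without and with Dox in shLSD1 cells, and 9.91% and 20.0% in shG9a cells.

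To see whether the combination differed from the sum of the single inhibitors, the log2 ratios of FPKM to vehicle were compared without a pseudocount. For 8 of the 10 members the combination lay above the sum by an amount whose interval excluded 0. This difference was computed for the members only, so the share of all genes above the sum is not known. Over all genes tested, the median log2 ratio (pseudocount of 1) was -0.21 with SP2509, -0.01 with UNC0642 and -0.02 with both inhibitors. E2F2 lay at the largest distance (4.16, 3.41 to 4.90), followed by CCNE2 (3.43, 2.56 to 4.30), CCNE1 (2.84, 1.92 to 3.76) and E2F1 (2.11, 1.82 to 2.40). For E2F2 and CCNE2 the sum was negative (-3.18 and -1.53) because of the fall with SP2509, while the observed combination was 0.97 and 1.90. CDKN2D, CDK4, CCND1 and CDKN1B lay above the sum by 1.03, 0.83, 0.67 and 0.23. CDK6 alone lay below it (-1.24, -1.38 to -1.09), and for CDKN2C the interval of the difference (-1.07 to 3.52) included 0. The intervals cover counting error in 4 libraries that include 1 vehicle library, and the doses of the combination are taken as those of the single inhibitors.

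**Figure D3:**
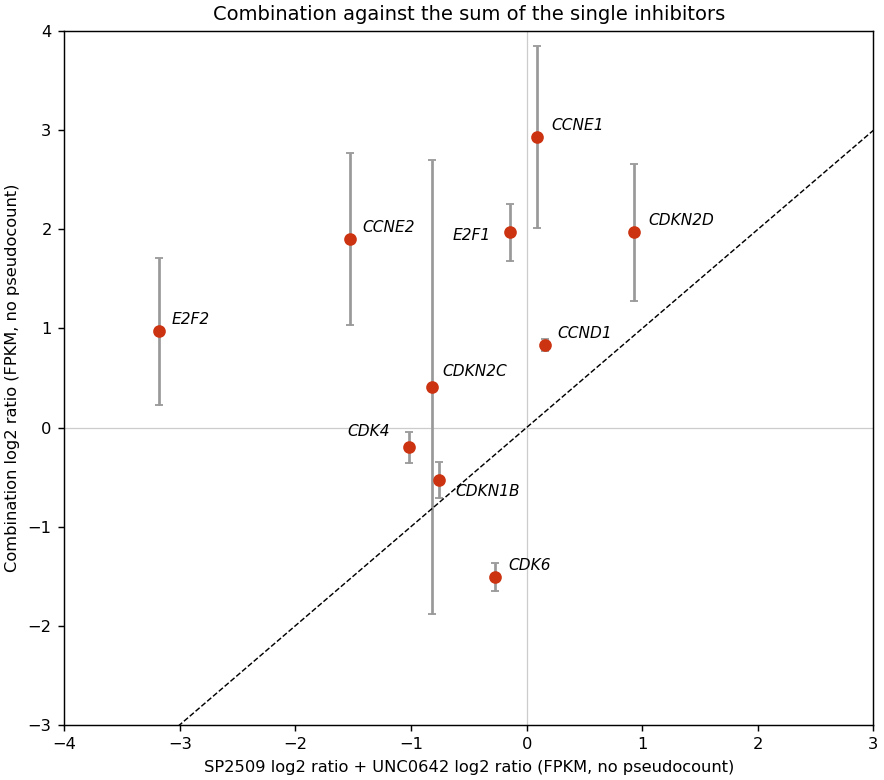
Observed log2 ratio of the combination to vehicle (vertical axis) against the sum of the log2 ratios of SP2509 and UNC0642 (horizontal axis) for the 10 genes, from FPKM without a pseudocount. The dashed line marks equality, and the vertical bars are the 95% counting interval of the difference from it. CDK6 lies below the line by 1.24 and E2F2 above it by 4.16.

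Silencing and inhibition of each enzyme were then set beside each other. For LSD1, E2F1 was lower with SP2509 and higher in shLSD1 cells with Dox, and the difference in log2 ratio was 1.56 (1.20 to 1.93). CCND1 likewise differed in direction, by 0.89 (0.82 to 0.96), although both of its calls depended on the scaling as given above. E2F2 (4.67, 3.79 to 5.56), CCNE2 (2.80, 1.59 to 4.0), CCNE1 (2.32, 1.27 to 3.36) and CDK4 (1.25, 1.08 to 1.41) also had a higher log2 ratio in the knockdown than with the inhibitor. CDKN2C (3.49, 1.15 to 5.82) and CDKN1B (0.56, 0.40 to 0.72) did so too, whereas CDKN2D had a lower one (-0.66, -1.31 to -0.02). For CDK6 no difference was detected (0.08, -0.07 to 0.23).

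For G9a, no difference was detected between shG9a with Dox and UNC0642 for CCNE1 (0.39, -0.28 to 1.07) or CCNE2 (0.65, -0.14 to 1.44), and the intervals allow differences of these sizes. CDK6 (-0.12, -0.30 to 0.05) and CDKN1B (-0.08, -0.23 to 0.07) had narrower intervals that also included 0. E2F1 (1.20, 0.87 to 1.53) and E2F2 (2.91, 2.34 to 3.47) had a higher log2 ratio in the knockdown, as did CDKN2C (4.39, 1.96 to 6.83), CDKN2D (1.27, 0.53 to 2.02) and CDK4 (0.61, 0.46 to 0.76). CCND1 had a lower one (-0.90, -0.97 to -0.83). The inhibitor and the knockdown values come from separate tables with separate controls, and CCND1 was at 99.6 FPKM in the vehicle library but 55.7 and 62.3 in the uninduced lines.

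**Figure D4:**
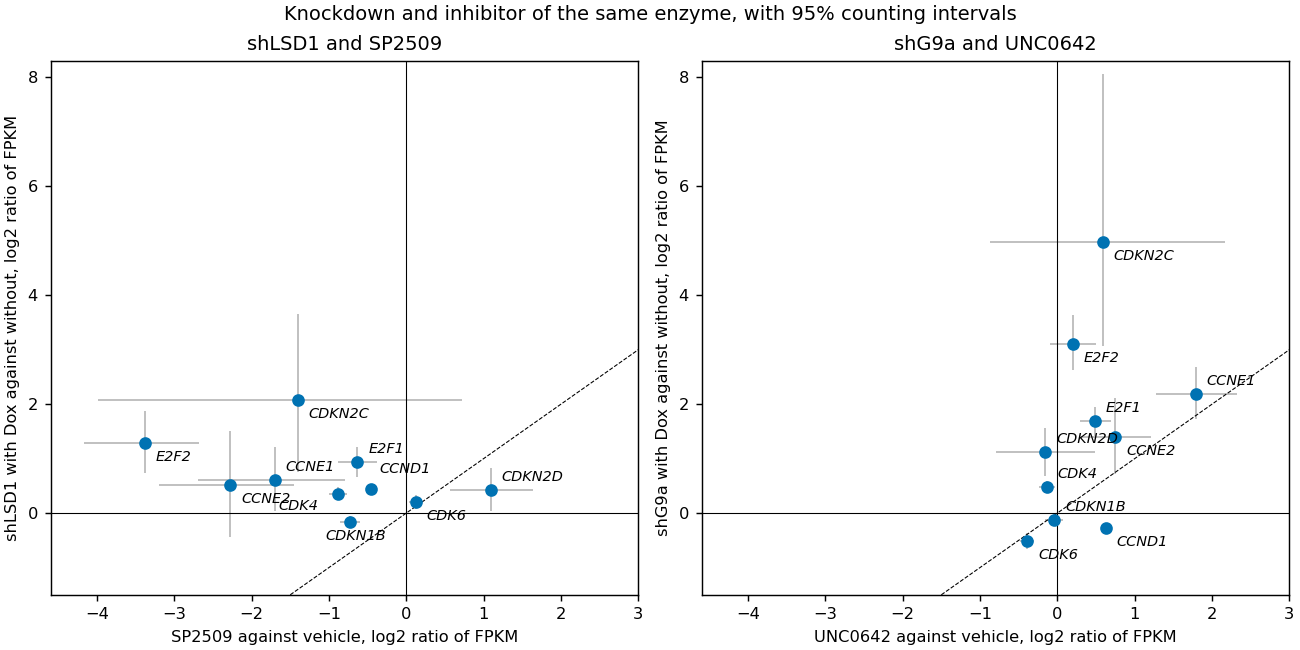
Log2 ratio of FPKM in the knockdown with Dox (vertical axes) against that after the matching inhibitor (horizontal axes), for LSD1 (left) and G9a (right), with exact 95% counting intervals as grey bars and equality as a dashed line. On the left, E2F2 and E2F1 are among the genes that lie left of 0 and above 0. On the right, CCNE1, CCNE2, E2F1, E2F2 and CDKN2C lie above 0 on both axes. The UNC0642 intervals of E2F2 and CDKN2C include 0.

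Across the 8 libraries, the log2(FPKM + 1) of the members after subtraction of each table's mean gave Pearson r of 0.96 for CCNE1 and CCNE2, 0.95 for CCNE1 and E2F1, and 0.90 for E2F1 and E2F2. CDK6 ran opposite to them, with r of -0.94 for CCNE2 and -0.89 for E2F1. Other pairs were weak, such as CCND1 and CDKN2C (0.03) and CDK4 and CDKN2D (-0.05). These are descriptions over 8 libraries from 2 tables, without a p. Among 4401 protein-coding genes with at least 5 FPKM in all 8 libraries, the most similar pattern was SS18L1 for CCNE1 (r = 0.99), TMX1 for CCNE2 (0.99), REEP5 for CDK4 (1.0) and NFKB1 for CDK6 (0.99). It was ZCCHC17 for E2F1 (1.0), RBX1 for E2F2 (0.99), BLMH for CDKN1B (0.98), UBAP2L for CDKN2C (0.98) and TMEM11 for CDKN2D (0.98). These r values exceed those of the member pairs named, so an r of that size is not particular to the members.

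The other genes of the pathway were counted from a fixed list of 22, of which 21 were listed. With SP2509, 2 of 18 tested were higher and 6 lower, with a median log2 ratio of -0.01 against -0.21 for all genes tested. With UNC0642, 6 of 18 were higher and 0 lower (median 0.23, all genes -0.01), and with both inhibitors 10 of 19 were higher and 3 lower (median 0.43, all genes -0.02). In shLSD1 cells with Dox, 8 of 19 were higher and 1 lower (median 0.15, all genes 0.13), and in shG9a cells 7 of 18 were higher and 1 lower (median 0.23, all genes 0.18). In the same order of comparisons, 21.0%, 18.2%, 31.4%, 24.8% and 32.9% of all genes were higher. The shares lower were 39.9%, 16.9%, 31.7%, 12.3% and 17.6%. The 6 of 18 lower with SP2509 and the 7 of 18 higher in shG9a cells are close to these shares, which also apply to the lists below.

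CDKN1A, the CIP/KIP inhibitor induced by p53, had the largest increase of that list on the log2(FPKM + 1) scale (3.69 with both inhibitors). It was at 10.8 FPKM with vehicle, 53.0 after SP2509, 38.0 after UNC0642 and 151 after both inhibitors, and went from 41.3 to 37.1 with Dox in shLSD1 cells and from 45.3 to 26.0 in shG9a cells. CDKN1A was therefore 14.0 times vehicle (12.8 to 15.3) in the library where the E cyclins and E2F1 were highest, and 0.573 times its control (0.535 to 0.613) in shG9a cells, where CCNE1 and E2F1 rose too. CDC25A, the phosphatase that activates CDK2, was at 4.06, 1.24, 6.31 and 16.4 FPKM in the same inhibitor order and rose from 0.862 to 2.98 and from 1.03 to 3.96 with Dox. Its order in the inhibitor table was that of the E cyclins and E2F1.

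CDK2, the kinase of the E cyclins, was at 5.15 FPKM with vehicle and 6.82, 8.43 and 10.1 with SP2509, UNC0642 and both, and rose with Dox from 2.60 to 4.09 in shLSD1 cells and from 2.52 to 5.66 in shG9a cells. CCND3, a further D cyclin, was at 2.44, 1.38, 3.95 and 6.37 FPKM in the inhibitor libraries, and E2F3, a further activator E2F, at 8.22, 8.31, 12.4 and 16.2. Both rose in both Dox libraries, with CCND3 at 2.66 and 3.90 FPKM with Dox and E2F3 at 7.84 and 9.53. RB1, which encodes RB, was called in none of the 5 comparisons (ratios 0.946 to 1.25), and RBL2, an RB relative, fell from 11.6 to 3.01 FPKM with both inhibitors and rose from 6.40 to 11.3 in shG9a cells with Dox. CDKN2A, the INK4 gene often lost in this cancer, was listed at 0 in 6 libraries and had 1 read in each of 2 libraries, and CDKN2B was in neither table.

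Of 15 E2F target genes, all tested, 2 were higher and 8 lower with SP2509 (median log2 ratio -0.41, all genes -0.21), 4 higher and 1 lower with UNC0642 (0.25, all genes -0.01), and 8 higher and 4 lower with both inhibitors (0.40, all genes -0.02). With Dox, 9 were higher and 0 lower in shLSD1 cells (0.43, all genes 0.13), and 12 higher and 0 lower in shG9a cells (0.69, all genes 0.18). RRM2, a subunit of ribonucleotide reductase, was at 13.4, 6.31, 20.3 and 34.0 FPKM with vehicle, SP2509, UNC0642 and both, and rose from 1.85 to 6.47 and from 2.49 to 12 with Dox. PCNA, the sliding clamp of DNA polymerase, was at 60.2, 21.1, 108 and 144 FPKM in the same order. These 2 targets followed the inhibitor order of E2F1, whereas CDC6, a licensing factor, was lower with UNC0642 (14.9 FPKM against 25.0).

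Genes used as general markers of proliferation did not move with the E cyclins in the combination. Of 8 such markers, 1 was higher and 6 lower with both inhibitors (median log2 ratio -1.03, all genes -0.02), with TOP2A at 100 FPKM for vehicle and 19.0 for the combination and PLK1 at 18.8 and 3.71. In shG9a cells with Dox, 7 of 8 were higher (0.74, all genes 0.18) with AURKB rising from 5.99 to 24.7 FPKM and MKI67 from 3.41 to 10.6, and in shLSD1 cells 5 of 8 were higher (0.56, all genes 0.13). With SP2509 2 were higher and 1 lower, and with UNC0642 1 was higher and 0 lower. The part that the cells' distribution over the cycle takes in the members' values was not tested.

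Genes for the turnover of cyclins and CDK inhibitors, 9 in all, were higher in 2 and lower in 4 with SP2509 (median log2 ratio -0.32, all genes -0.21) and also with both inhibitors (-0.14, all genes -0.02), and the share lower with SP2509 is close to the 39.9% of all genes. With UNC0642 0 were called (0.04, all genes -0.01). In shLSD1 cells 1 was higher (0.23, all genes 0.13), and in shG9a cells 4 were higher and 1 lower (0.38, all genes 0.18). SKP2, the ubiquitin ligase subunit that directs CDKN1B to degradation, was at 28.1 FPKM with vehicle, 17.0 after SP2509, 30.9 after UNC0642 and 14.9 after both inhibitors, so that SKP2 and CDKN1B were lower in the same 2 inhibitor libraries. With Dox it went from 13.8 to 15.9 FPKM in shLSD1 cells and rose from 13.6 to 24.0 in shG9a cells. UBAC1, part of a ligase complex for CDKN1B, rose from 17.0 to 31.1 FPKM in shG9a cells with Dox and was at 9.70 FPKM with both inhibitors against 18.6 with vehicle.

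**Figure D5:**
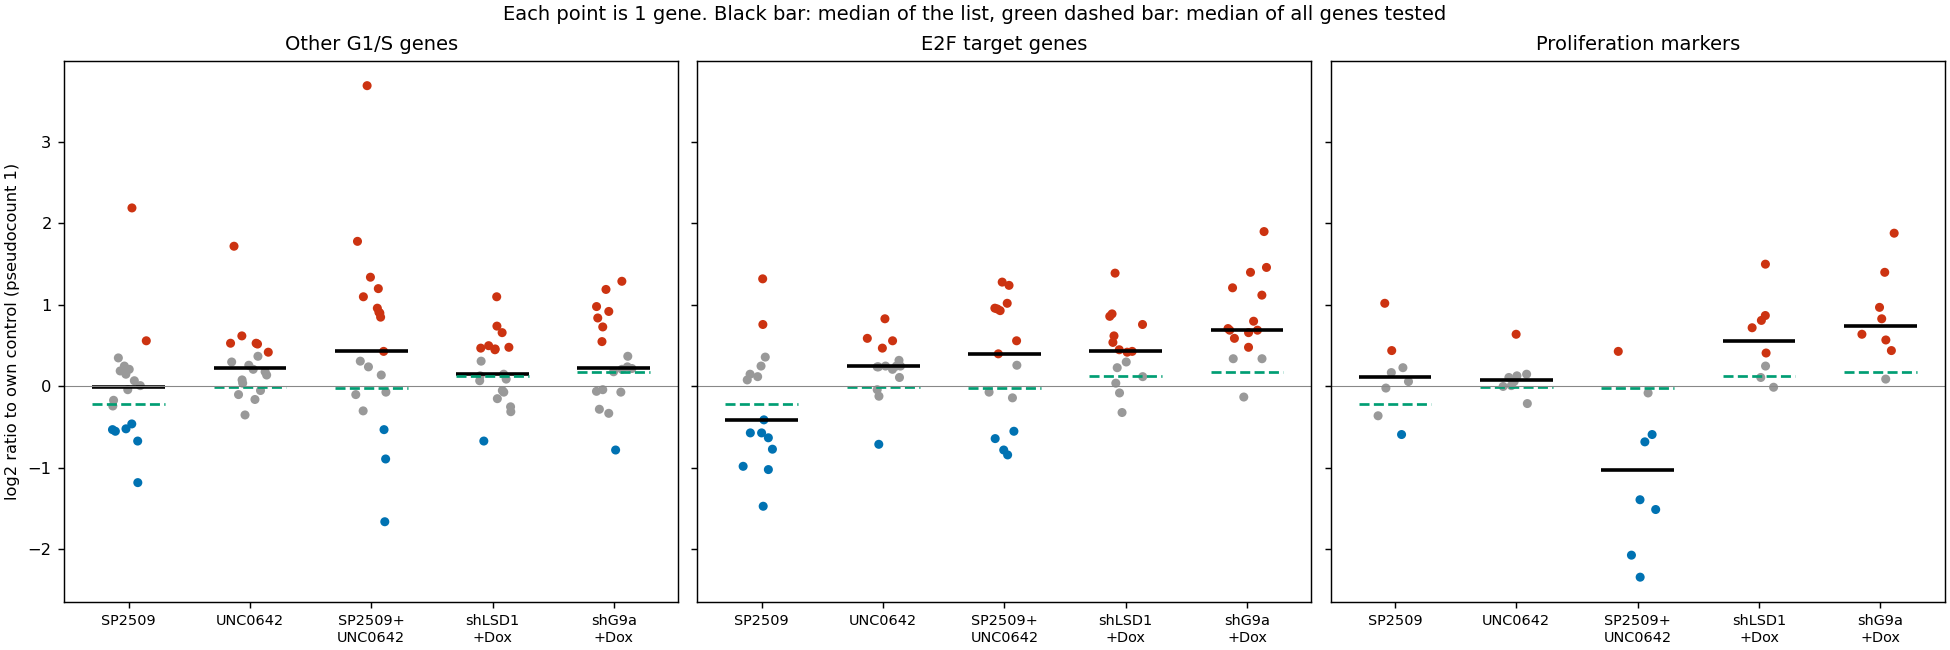
Log2 ratio to the own control (pseudocount of 1) of each tested gene of 3 lists in the 5 comparisons: other G1/S genes, E2F target genes and proliferation markers. Each point is a gene (red called higher, blue lower, grey neither), the black bar is the median of the list, and the green dashed bar is the median of all genes tested. In the combination the median is 0.40 for the E2F targets and -1.03 for the proliferation markers.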

How the data were processed

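RNA from 8 Kyse510 libraries was sequenced as paired reads of 150 bases. The authors mapped reads to GRCh38 after quality filtering and deposited FPKM values in 2 tables of 31582 and 28942 genes. The aligner, counter and strand setting are not given in the sources used here. Conditions were taken from the sample labels. Whole reads and library totals were recovered from the steps of the FPKM values, which gave 99.6% to 99.8% of each total, and the recovery was tested on simulated data. Ratios used a pseudocount of 1, a filter of 1 FPKM and a fold threshold of 1.3. Intervals are exact 95% binomial intervals of the recovered reads, and differences of log2 ratios have normal 95% intervals. Overlapping genes were taken from GENCODE release 44 and promoters from RefSeq. Python 3.11.15, pandas 2.3.3 and scipy 1.17.1 were used. The members and gene lists were chosen with earlier results of these data known. Named genes were the members, KDM1A, EHMT2, 8 fixed pathway genes, the largest changes of each list, and the most similar gene for each member, and 2 of these genes are not reported here. Other pseudocounts, filters, fold thresholds and scalings, an added binomial test and a shared control were tried as alternatives.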

Additional observations from a re-analysis of the deposited data

Results flagged for a closer look

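For 2 members, the knockdown and the inhibitor of LSD1 were called in opposite directions. The share of all genes called in opposite directions was not computed, so whether 2 members is unusual is not known. Of all genes tested, 39.9% were lower with SP2509 and 24.8% were higher in shLSD1 cells with Dox. E2F1 had a log2 ratio in shLSD1 cells with Dox that exceeded the SP2509 log2 ratio by 1.56 (1.20 to 1.93), and CCND1 by 0.89 (0.82 to 0.96). Both differences have counting intervals that exclude 0, but neither was tested against variation between cultures, since each condition had 1 library. The CCND1 calls ended when ratios were centred on their median, while the direction stayed.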

How the results depend on the processing

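Of the counts of members called, 67 alternatives gave values within 1.5 times the reported count, and the others follow with the share of all genes in parentheses. At a fold threshold of 2, SP2509 had 0 higher (8.25%) and 1 of 8 lower (13.0%), so that the lower share is near the background. At the same threshold UNC0642 had 1 higher (4.79%), the combination 1 lower (9.57%), shLSD1 0 higher (3.36%) and shG9a 0 lower (6.02%). A filter at 5 FPKM left 5 members tested in each of the next 3 comparisons. With it, SP2509 had 0 of 5 higher (21.3%), UNC0642 2 of 5 higher (16.9%), and shG9a 3 of 5 higher (33.0%) and 0 of 5 lower (18.6%). Pseudocounts of 0.1 and 0.01 each gave 1 lower for UNC0642 (21.4% and 21.9%) and 4 higher for shLSD1 (31.0% and 31.7%). With ratios centred on their median, shLSD1 had 1 higher (17.9%) and shG9a 2 lower (21.6%), and with equal upper quartiles shLSD1 had 1 higher (16.8%). No log2 ratio of a called member changed sign under the other pseudocounts or scalings. Over all 10 members in the 5 comparisons, called or not, log2 ratios from these settings were sorted by their shift from the reported value. In 160 the shift was at most the distance from the middle of the counting interval to its end, and in 40 it was larger. The sorting does not say whether a value lies inside the interval, which was computed without a pseudocount. Where intervals were wide, large shifts also counted among the 160, such as CDKN2C in shG9a cells from 1.05 to 3.19 at a pseudocount of 0.1. No paired analysis was possible because each condition had 1 library. Low read counts of CDKN2C, CCNE1 and CCNE2 limit their ratios.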
